A study of Caenorhabditis elegans with 2 samples.

Results

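A set of 10 C. elegans genes of sex determination and dosage compensation was followed through the regions listed for the tagged protein ZK546.5. They were xol-1, sdc-1, sdc-2, sdc-3, her-1, dpy-21, dpy-26, dpy-27, dpy-28 and mix-1, taken by name, and all 10 were found among the 19973 nuclear protein-coding genes of the annotation. For each gene every region was taken whose summit lay inside the gene or within 5 kb of it. Chromosome X carries 3 of the genes (xol-1, sdc-1 and sdc-2) and the autosomes carry 7. Chromatin immunoprecipitation followed by sequencing was done on whole larvae of the L4 stage, labelled as pooled male and female and of unknown age, in 1 group of 2 biological replicates. The strain was OP231, genotype unc-119(ed3) III with the integrated transgene wgIs231, which makes ZK546.5 with a GFP-FLAG tag at its C-terminal end. Both replicates carry the same mutation and transgene, and the labels name no promoter for the tagged protein. A control experiment that the labels point to was not analysed here. Whole animals of both sexes were pooled, so the values do not separate tissues or sexes.

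In worms the ratio of X chromosomes to autosomes sets sex through xol-1, the switch gene that promotes male development when active. In hermaphrodites xol-1 is off, and the SDC proteins then repress the male gene her-1 and bring the dosage compensation complex to both X chromosomes. That complex is built around a condensin and lowers transcription from each X. It is known to load at sites on X that hold a short sequence called the MEX motif.

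The authors deposited a list of 30000 regions for each replicate and for both replicates pooled, and a set of 92 peaks that passed IDR (irreproducible discovery rate, which keeps regions ranked high in both replicates). The lists hold background as well as peaks. Each region carries a signal value from the authors' peak caller. No source used here states the scale of that value, so signals were compared within a list, and different lists by rank. Read depth is unknown. The median signal was 12.7 in the pooled list, 8.98 in replicate 1 and 6.39 in replicate 2. All coordinates are ce11, counted from 1.

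A single gene of the 10, xol-1, had an IDR peak within 5 kb, and it lay upstream of the gene and not at its start. That is 1 of the 3 genes on X and 0 of the 7 autosomal genes, against 1.25% of all 19973 protein-coding genes, 1.68% of the 2731 on X and 1.18% of the 17242 on autosomes. A pooled-list region within the top 1000 by signal lay within 5 kb of 2 genes, xol-1 and dpy-28, against 11.9% of all protein-coding genes, so the count for the 10 genes was close to the background. On X this was 1 of 3 genes (background 12.3%) and on autosomes 1 of 7 (background 11.8%). Pooled regions of any rank were near 8 of the 10 genes (background 94.4%), 2 of 3 on X (background 96.3%) and 6 of 7 on autosomes (background 94.1%). The exceptions were sdc-2 and dpy-26. Replicate 1 had a region near 9 genes (background 95.3%), which were 2 of 3 on X (96.8%) and 7 of 7 on autosomes (95%). Replicate 2 had one near all 10 (background 96%), 3 of 3 on X (97.5%) and 7 of 7 on autosomes (95.8%). Almost every gene of the worm has a region this near, so such counts say little about these 10. In the top 1000 of replicate 1 were regions near xol-1 and dpy-28 (1 of 3 genes on X, background 10.7%; 1 of 7 autosomal genes, background 12.2%; all genes 12%). In the top 1000 of replicate 2 they were near xol-1 and dpy-21 (1 of 3 on X, background 13.1%; 1 of 7 on autosomes, background 11.9%; all genes 12.1%). In both replicates it was xol-1 alone, 1 of 3 genes on X (background 3.22%) and 0 of 7 autosomal genes (background 2.8%; all genes 2.85%). With the limit at rank 5000, a pooled region was near 4 of the 10 genes (background 45.2%), and a region in both replicate lists, not always the same one, near 5 (background 23.7%). The genes were chosen with earlier results of these data known, and genes are not replicates of the animals, so these counts carry no test.

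**Figure D1:**
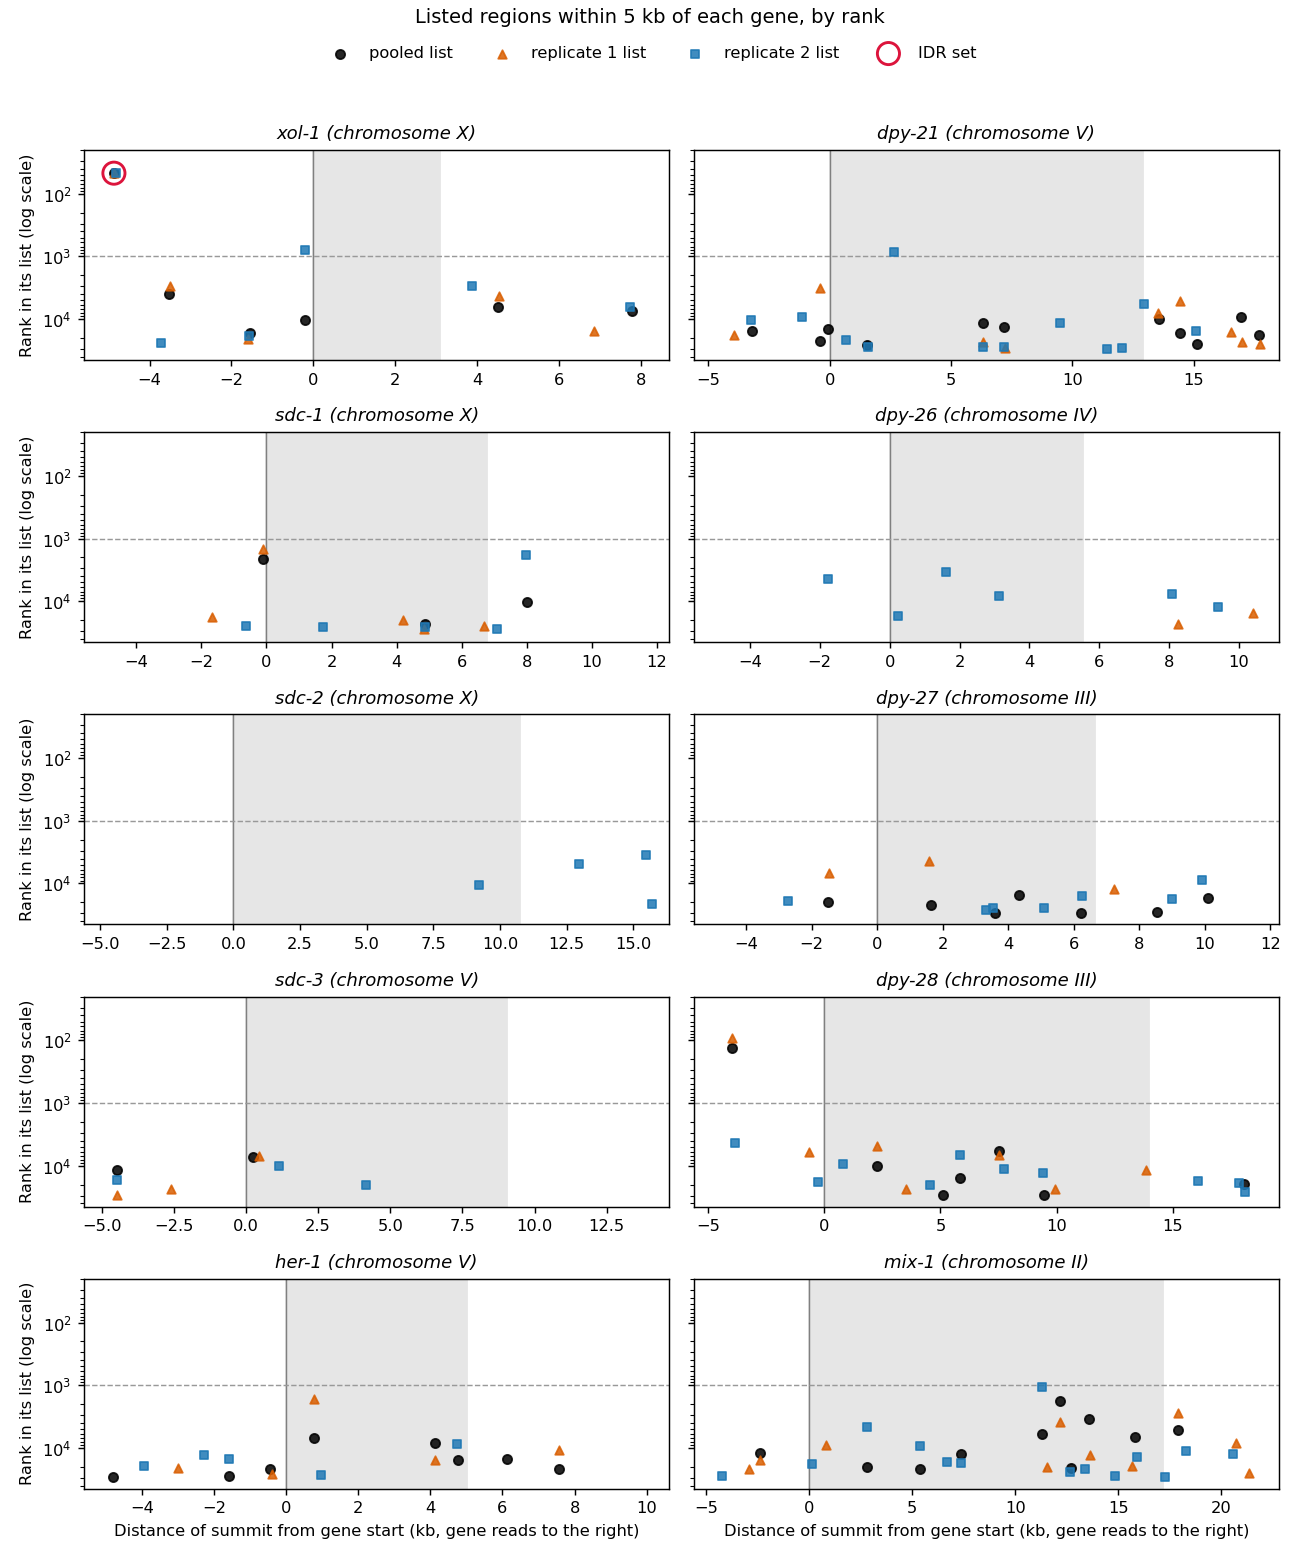
Rank of every listed region (vertical axis, log scale, best ranks at the top) against the distance of its summit from the gene start in kb (horizontal axis), one panel per gene. Circles, triangles and squares are the pooled, replicate 1 and replicate 2 lists, the red ring is the IDR set, the grey band is the gene and the dashed line is rank 1000. The region 4874 bp upstream of xol-1 stands at rank 47, and the other symbols above the dashed line are the region upstream of dpy-28 in the pooled and replicate 1 lists and single replicate 2 regions at xol-1 and dpy-21.

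The switch gene xol-1 (WBGene00006962) lies on the plus strand of X from 8041313 to 8044409. Its IDR peak spanned 8036289 to 8036588, with the summit 4874 bp upstream of the gene start, in sequence that no protein-coding gene covers. The peak had a signal of 70.5 in the pooled list. At the same summit the region had a signal of 44.8 in replicate 1 and 29.7 in replicate 2. Its rank was 47 in the pooled list, 47 in replicate 1 and 47 in replicate 2, so both replicates placed it equally high. Within the IDR set it was 47th of 92 and 5th of the 19 peaks on X. The set also holds 54 autosomal peaks and some outside the nuclear chromosomes, which all count in the rank of 47. The highest pooled signal within 5 kb was lower than that of xol-1 for 99.6% of X genes. No protein-coding start was nearer to the summit than that of xol-1. Measured to the gene body, the protein-coding gene C34D10.1 was slightly nearer, with its end 4825 bp from the summit. The peak thus lay within 5 kb of both genes. The nearest genes of any kind were the non-coding RNA gene C18A11.13 and, on the opposite strand, the tRNA gene WBGene00022939, whose start was 318 bp from the summit.

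The sequence of that peak holds the core of the MEX motif, searched as GCGCAGG on both strands, in a pair of inverted copies. The whole peak is shown on the plus strand because it is the IDR peak of the 10 genes, with the copies in capitals.
xol-1 upstream peak, chrX:8036289-8036588: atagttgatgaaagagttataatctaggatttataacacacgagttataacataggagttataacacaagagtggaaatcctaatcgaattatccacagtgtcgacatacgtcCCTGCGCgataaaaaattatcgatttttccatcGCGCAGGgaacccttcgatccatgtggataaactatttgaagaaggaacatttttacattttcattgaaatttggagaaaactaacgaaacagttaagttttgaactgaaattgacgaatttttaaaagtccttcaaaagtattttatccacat
Extended as far as the copies stay reverse complements of each other, each reads ATCGCGCAGGGA over 12 bases, on the minus strand from 8036400 to 8036411 and on the plus strand from 8036432 to 8036443. The copies stood 20 bases apart. The plus-strand copy was centred 2 bp and the minus-strand copy 34 bp from the pooled summit, at 8036439. The replicate regions had their own summits, at 8036433 in replicate 1 and 8036486 in replicate 2. GCGCAGG lay within 50 bp of 1 of the 9 pooled summits near genes on X and of 0 of the 45 near autosomal genes. Over the whole lists it lay that near to 7 of 19 IDR summits on X (36.8%), against 2 of 54 on autosomes (3.70%). Among all pooled summits it was at 0.367% on X and 0.218% on autosomes. The chromosomes themselves hold it almost equally often, at 20.1 copies per Mb on X and 19.9 on autosomes.

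The xol-1 copies and some of those at other X peaks shared bases beyond the core. All 8 copies within 50 bp of an IDR summit on X are shown with 7 bases on each side. Each is read on the strand that holds GCGCAGG, which is in capitals.
xol-1 peak, chrX:8036395-8036415, minus strand: ttttatcGCGCAGGgacgtat
xol-1 peak, chrX:8036428-8036448, plus strand: ttccatcGCGCAGGgaaccct
IDR peak ranked 34, chrX:11094220-11094240, minus strand: accattcGCGCAGGgacacct
IDR peak ranked 44, chrX:6296569-6296589, plus strand: aggtatcGCGCAGGgaagatt
IDR peak ranked 56, chrX:4209260-4209280, minus strand: cgctatcGCGCAGGgacacct
IDR peak ranked 71, chrX:16682166-16682186, minus strand: aaacatcGCGCAGGgaacatc
IDR peak ranked 78, chrX:806667-806687, plus strand: gattatcGCGCAGGggtgttt
IDR peak ranked 84, chrX:5429583-5429603, plus strand: aaatttaGCGCAGGgaggacg
The full 12 bases stood around 5 of these 8 copies, in 4 of the 7 peaks. The copies shown for the peaks ranked 34, 78 and 84 lacked them. The xol-1 peak was the 1 of these 7 peaks with more than 1 copy within 50 bp of its summit. Farther out, the peak ranked 34 held a second copy, within the full 12 bases, 90 bp from its summit. Over whole peaks the 12 bases lay in 7 IDR peaks on X, among them peaks with no copy within 50 bp of the summit. The 12-base repeat, which was read from the xol-1 peak after its signal was known, occurs 10 times on X and 1 time on the autosomes. Of the 8 copies on X outside the xol-1 peak, 6 lay inside an IDR peak, each in a different one. The autosomal copy lay in none. Of 3 further words that earlier work on these data had picked at the IDR peaks, none lay within 50 bp of the xol-1 summit. The word ACCGTA lay within 50 bp of 1 of the 54 pooled summits near the 10 genes (at mix-1), or 1.85%, against 2.18% of all pooled summits on X and 2.72% on autosomes. The word CCTGCA lay that near to 3 of them (at sdc-1, dpy-21 and dpy-28), or 5.56%, against 1.70% on X and 2.05% on autosomes. The word ATCTAA lay near 1 (a weak region at xol-1), or 1.85%, against 6.39% on X and 5.74% on autosomes. Counts of 1 to 3 summits are too few to set these shares apart.

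The other pooled regions near xol-1 were weak, and both replicates listed a region over 1 of the 5 summits, at rank 20800 in replicate 1 and 18545 in replicate 2. At the gene start, 204 bp upstream, the pooled list had a region with a signal of 14.1 at rank 10529. In replicate 2 a region there had a signal of 12.5 at rank 792, 210 bp upstream of the start, and replicate 1 listed none. The remaining 4 pooled regions had signals from 12.3 to 17.3. The start of xol-1 itself was in the top 1000 of 1 replicate only.

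Of the recruitment genes, in the pooled list, sdc-1 had a region at its start, sdc-2 had no region and sdc-3 had weak ones. SDC-2 is the hermaphrodite-specific protein that directs the complex to X, and SDC-1 and SDC-3 are zinc-finger proteins that act with it. The gene sdc-1 (WBGene00004745) lies on the plus strand of X from 16275763 to 16282534. Its strongest pooled region, from 16275520 to 16275819, had its summit 93 bp upstream of the start and a signal of 19.3 at rank 2126. Replicate 1 had a signal of 15.0 at rank 1465 there, and replicate 2 listed no region over that summit. The highest signal near sdc-1 exceeded that of 75.8% of X genes. The 101 bases around the summit are shown to compare with the xol-1 peak. They hold none of the 4 words, so no letter is in capitals.
sdc-1 start, chrX:16275620-16275720, plus strand: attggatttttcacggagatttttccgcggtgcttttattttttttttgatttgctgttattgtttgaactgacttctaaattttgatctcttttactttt
The other pooled regions near sdc-1 numbered 2, with signals of 11.0 and 14.1. The highest region of replicate 2 lay over the summit of the second, downstream of the gene, with a signal of 10.9 at rank 1812. Replicate 1 listed none over that summit.

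The gene sdc-2 (WBGene00004746), on the plus strand of X from 11522707 to 11533450, had 0 pooled regions where its window and the density of X gave 6.06. Replicate 1 also had 0, against 6.11, and replicate 2 had 4, against 6.21, with a highest signal of 9.54 at rank 3479. The nearest pooled summit was 5.69 kb from the gene and the nearest IDR summit 72.8 kb. On chromosome V, sdc-3 (WBGene00004747), on the minus strand from 15039148 to 15048207, had 2 pooled regions, against 5.30 by density. The stronger, in an intron 256 bp downstream of the start, had a signal of 15.4 at rank 7268, and neither replicate listed a region over its summit. The highest signals near sdc-3 were 11.1 in replicate 1 and 7.24 in replicate 2, at ranks 7106 and 10305.

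The autosomal target her-1 (WBGene00001842), whose product is a secreted protein that promotes male fates, had many listed regions and no strong one. It lies on the plus strand of chromosome V from 9697015 to 9702035. The pooled list had 8 regions near it, against 4.18 by density, with signals from 9.97 to 15.5 and ranks from 29149 to 7029. Each replicate had 5, against 4.16 in replicate 1 and 4.22 in replicate 2. The strongest pooled region had its summit in an intron 783 bp downstream of the start. Replicate 1 had a signal of 14.6 at rank 1688 over that summit, and replicate 2 listed none. The highest region in replicate 2, with a signal of 7.64 at rank 8645, lay elsewhere, in an exon 4744 bp downstream of the start. None of the 8 pooled summits had a region over it in both replicates, where 17.1% of all nuclear pooled regions had one. The highest pooled signal near her-1 exceeded that of 43.1% of autosomal genes. A copy of GCGCAGG lies in an intron of her-1 from 9698991 to 9698997, and the nearest pooled summit was 1196 bp from it. The density of the word on the chromosome gave 0.304 copies for the window of her-1. A single copy also lay downstream of dpy-28, 3913 bp from the nearest pooled summit, where the density gave 0.504. These copies were not tested.

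Among the genes of the complex itself, dpy-28 had the strongest region, and that region lay at the start of another gene. DPY-28 and DPY-26 are condensin subunits that also serve in a mitotic and meiotic condensin, MIX-1 is an SMC subunit shared by worm condensins, and DPY-27 is the SMC subunit particular to dosage compensation. The gene dpy-28 (WBGene00001087) lies on the plus strand of chromosome III from 10763131 to 10777076. The region spanned 10759032 to 10759331, with a pooled signal of 30.3 at rank 130. Replicate 1 had a signal of 25.3 at rank 91 at its summit, and replicate 2 a signal of 9.08 at rank 4358, so only 1 replicate placed it in its top 1000. It is not in the IDR set. The summit was 3949 bp upstream of dpy-28 and 125 bp upstream of tasp-1, which lies between them on the same strand and ends 109 bases before dpy-28 begins. The bases around the summit hold none of the 4 words and were richer in G and C, at 47.5%, than the 101 bases at sdc-1 (28.7%).
tasp-1 start, upstream of dpy-28, chrIII:10759132-10759232, plus strand: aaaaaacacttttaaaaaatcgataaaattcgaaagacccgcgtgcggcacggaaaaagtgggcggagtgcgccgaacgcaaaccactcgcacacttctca
Within dpy-28 the strongest pooled region had a signal of 16.0 at rank 5875, in an intron 7520 bp downstream of the start.

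The gene mix-1 (WBGene00003367), on the plus strand of chromosome II from 10824246 to 10841424, had 10 pooled regions, against 7.71 by density. The strongest lay in an intron 12143 bp downstream of the start, with a signal of 19.9 at rank 1768. Replicate 1 had a signal of 12.7 at rank 3866 over that summit, and replicate 2 listed none. The highest region of replicate 2, with a signal of 11.9 at rank 1074, was in an intron at another summit, 11267 bp downstream. At dpy-27 (WBGene00001086), on the minus strand of chromosome III from 3813018 to 3819679, the 7 pooled regions had signals from 9.87 to 12.7. Its best pooled rank was 15122, the lowest among the 8 genes with a pooled region. That region had its summit in an exon 4315 bp downstream of the start, and neither replicate listed a region over it. The best ranks near dpy-27 were 4334 in replicate 1 and 8727 in replicate 2, at other summits. At dpy-26 (WBGene00001085), on the minus strand of chromosome IV from 12445801 to 12451335, 0 pooled regions were listed where the density of the chromosome gave 4.87. Replicate 1 had 2 there and replicate 2 had 6, with highest signals of 8.93 and 9.56, and the nearest pooled summit was 7.78 kb from the gene.

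The histone demethylase gene dpy-21 (WBGene00001080), whose product removes a methyl group from lysine in histone H4 on X, lies on the minus strand of chromosome V from 17936282 to 17949193. It had 11 pooled regions, the most of the 10 genes, against 6.37 by density. Their signals ran from 10.5 to 14.5, with a best rank of 9401. The strongest had its summit outside the gene, downstream, 16975 bp from the start. Replicate 1 had a region at rank 22902 over that summit, and replicate 2 listed none. Replicate 2 had a region in its top 1000, with a signal of 12.3 at rank 862, in an exon 2663 bp downstream of the start. No pooled region had its summit there. Near the start, at 80 and 416 bp upstream, the pooled signals were 12.9 and 11.2. Replicate 1 had 13.2, at rank 3150, at the second of these and replicate 2 listed no region at either.

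**Figure D2:**
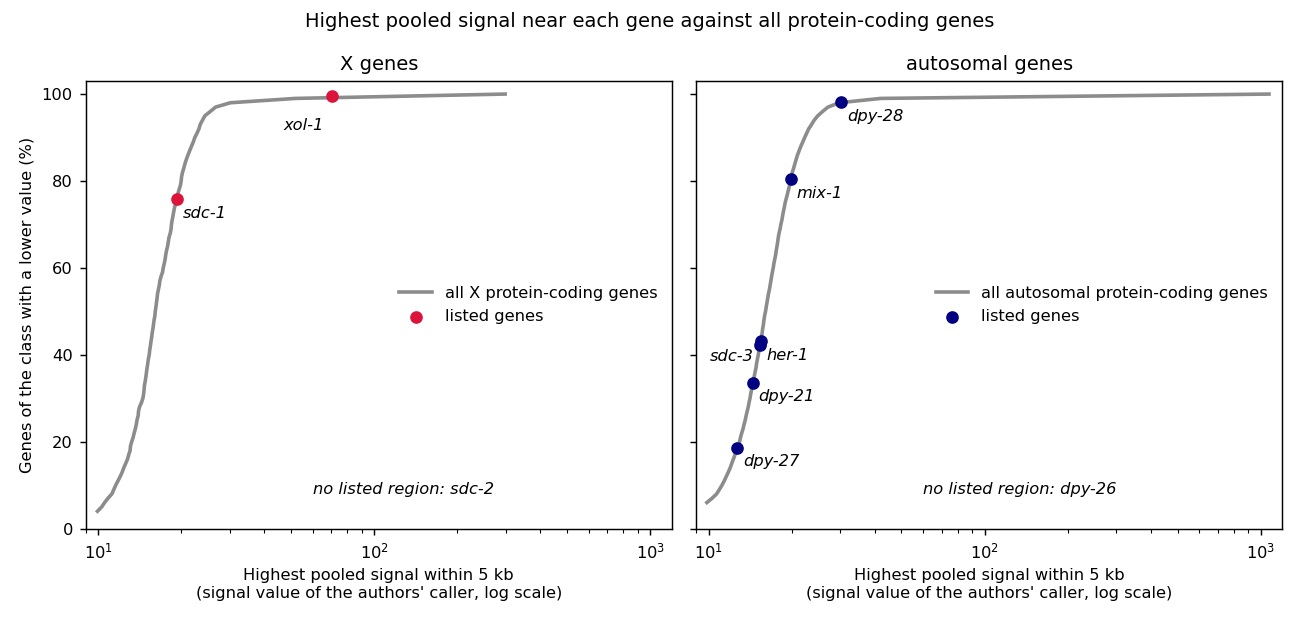
Highest pooled signal within 5 kb of each gene (horizontal axis, the authors' signal value on a log scale) against the percentage of genes of the same class with a lower value (vertical axis), for X genes on the left and autosomal genes on the right. Points are the genes described here and the grey line is all protein-coding genes of the class; xol-1 at 70.5 and dpy-28 at 30.3 lie at the upper end, and the other 6 genes with a region lie between 12.7 and 19.9.

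The genes on X had a higher median of the highest signal than the autosomal genes, and fewer regions for their length, with 3 genes on one side and 7 on the other. The median of the highest pooled signal was 19.3 over the 3 genes on X and 15.4 over the 7 autosomal genes, with a gene that had no region ranked lowest, a difference of 3.93. The X median is the value of sdc-1 alone. Over all protein-coding genes the medians were 16.10 on X and 16.09 on autosomes. Within 2 kb of the genes the difference was 0.371. In the replicate 1 list the medians were 15.0 on X and 13.2 on autosomes, against 11.65 and 11.64 over all protein-coding genes. In the replicate 2 list they were 10.9 and 9.08, against 8.78 and 8.59. The pooled list holds both replicates, so the lists are not independent. In replicate 2 the X median came from a region downstream of sdc-1. The X median was the higher in each list, but each time it was the value of sdc-1. The number of regions went the other way: the pooled list had 9 regions near the genes on X, 1.78 per 10 kb, and 45 near the autosomal genes, 3.21 per 10 kb. The density of the whole chromosomes was 2.92 per 10 kb on X and 3.004 on autosomes. The low count on X came mostly from sdc-2, with 0 regions against 6.06 by density. By the same measure sdc-1 had 3 against 4.90, and xol-1 had more than its density gave, 6 against 3.83. In replicate 1 the counts were 10 on X, against 14.9 by density, and 39 on autosomes, against 41.4. In replicate 2 they were 15 on X, against 15.2, and 57 on autosomes, against 41.6.

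Outside the regions of xol-1 and dpy-28 the 10 genes had 52 pooled regions, none in the top 1000. Their signals ran from 9.84 to 19.9, and 28 of them were below the median of the nuclear pooled regions. By position 15 of all 54 summits were upstream of the gene, 6 in exons, 19 in introns and 14 downstream. Between 500 bp upstream and 100 bp downstream of the gene start there were 5, at xol-1, sdc-1, her-1 and dpy-21. The shares of these positions over all genes were not computed, so the position counts have no background beside them. Both replicates listed a region over 8 of the 54 pooled summits (14.8%), close to the 17.1% of all 29979 nuclear pooled regions. On X it was 3 of 9 and on autosomes 5 of 45, with no separate background for either. A further 20 were listed in replicate 1 only, 18 in replicate 2 only and 8 in neither (14.8%). Of all 29979 nuclear pooled regions, 12146 were listed in replicate 1 only, 7598 in replicate 2 only and 5099 in neither (17.0%).

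**Figure D3:**
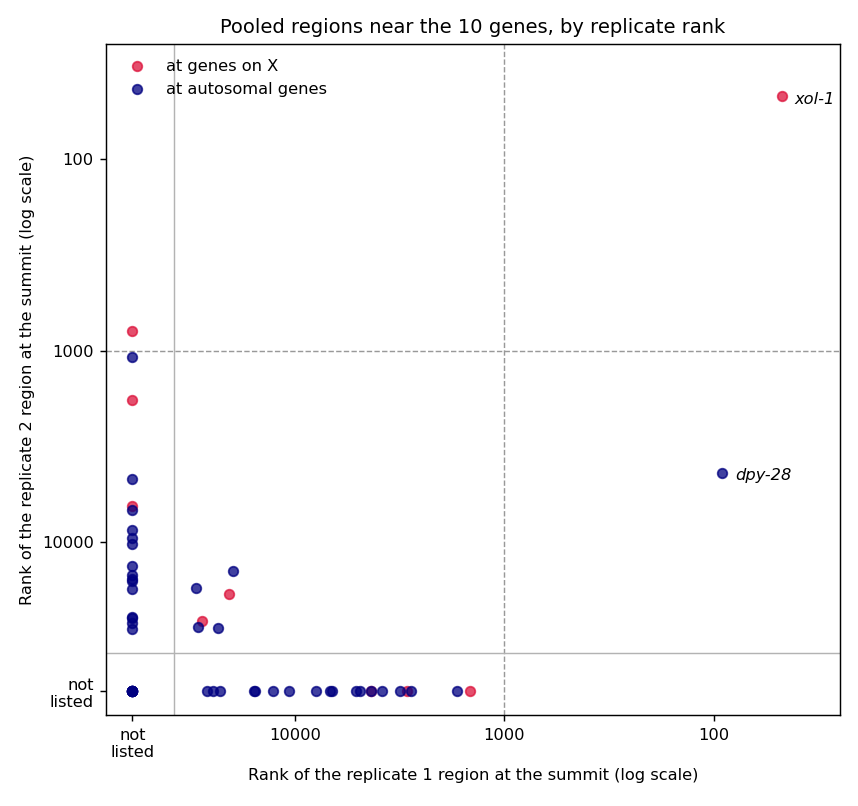
Rank of the replicate 1 region (horizontal axis) and of the replicate 2 region (vertical axis) over each of the 54 pooled summits near the 10 genes, both on log scales with the best ranks at the top right; regions that a replicate did not list are placed at the edge. Red points are at genes on X and blue points at autosomal genes. The xol-1 point is at rank 47 on both axes and dpy-28 at 91 and 4358, and the other 6 summits that both replicates listed have ranks from 19728 to 29712 in replicate 1 and from 14111 to 27856 in replicate 2.

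Further genes of sex determination and dosage compensation had listed regions but no IDR peak. Of 26 such genes 0 had an IDR summit within 5 kb (background 1.25%) and 3 had a top 1000 pooled region there (background 11.9%). In the top 1000 of replicate 1 were regions near 6 of the 26 (background 12%), in that of replicate 2 near 4 (background 12.1%), and in both near 3 (background 2.85%), which were tra-1, sex-1 and capg-1. The best replicate summits lay 13962 bp apart near tra-1, 6993 bp apart near sex-1 and 2489 bp apart near capg-1. The best regions of the replicates were thus different ones there, and other regions were not compared. The median of the highest pooled signals of the 26 genes was 15.9, against 16.1 over all protein-coding genes. The strongest was near tra-2, which encodes the membrane receptor that HER-1 inhibits, with a signal of 31.1 at rank 122. Its replicate ranks were 337 and 1673, and its summit was 2854 bp upstream of tra-2 but 879 bp from the start of eif-2Bgamma. Near fog-3, a gene needed for sperm fate, the signal was 24.4 at rank 428, and the summit was 455 bp from the start of C03C11.1 and 2673 bp from that of fog-3. Near sea-2, an autosomal signal gene that acts on xol-1, the signal was 23.2 at rank 616, and the summit was 9 bp from the start of K10G6.9 and 21876 bp from that of sea-2. Each of these 3 summits was nearer to another gene's start. The condensin gene capg-1 had a region nearest to its own start, 593 bp upstream, with a signal of 21.1 at rank 1182 in the pooled list, rank 983 in replicate 1 and rank 17935 in replicate 2. No pooled region lay near the condensin genes smc-4 and hcp-6.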

How the data were processed

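ChIP-seq of GFP-FLAG-tagged ZK546.5 in whole L4 larvae gave 2 biological replicates of 1 group. Per the text files deposited with the samples, the lists of each replicate and of the pool hold narrowPeak regions, peaks and background alike, from alignments to ce11 together with a further file that these texts do not describe, and the IDR set came from these 3 lists. The signal value of each region is the authors', from their peak caller; the caller and aligner with their versions, the value's scale and the IDR cutoff were not given in the sources used here. Since the lists hold no counts, depth and the error it would give are unknown. The ce10 lists were not used here.

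Ranks were computed by signal value within each list, and summits were assigned to genes of the Ensembl release 115 annotation of WBcel235, the assembly of ce11, with Python 3.11.15 and pandas 2.3.3. A region over a summit is a replicate region that covers the pooled summit. Expected numbers are a chromosome's regions per length times the window. Words were searched on both strands in the RefSeq sequence of the same assembly. The assignment was tested on simulated regions.

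All 10 genes are named, and for each the strongest pooled region and every region in the top 1000 of any list is described. Of 26 other pathway genes, those with a top 1000 pooled region are named; tra-1, sex-1, capg-1, fog-1, smc-4 and hcp-6 were named after their values were seen. The genes, lists and words were chosen with earlier results of these data known. Windows, the use of the summit, rank limits, the IDR limit and each replicate alone were varied. The sequence of 1 region is not reported here.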

Additional observations from a re-analysis of the deposited data

How the results depend on the processing

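The counts of genes changed with the window and the limits. Within 2 kb, 0 genes had an IDR summit, 0 had a top 1000 pooled region and 0 had a top 1000 region in both replicates, since the xol-1 and dpy-28 summits lie farther out. Among the IDR peaks above the middle of the set by signal 0 genes had a summit, because xol-1 ranks 47th of 92. With the top 5000 in place of the top 1000, 4 genes had a pooled region (sdc-1 and mix-1 as well), against 45.2% of all protein-coding genes, and 5 had one in both replicates, against 23.7%. The difference between the X and autosomal medians of the highest pooled signal was 0.371 within 2 kb, 2.34 within 10 kb and 5.75 within 5 kb of the gene start, and from 1.77 to 1.80 with each replicate left out, where only the sign can be compared because each list has its own scale. The number of genes with a top 1000 region stayed at 2 in each replicate alone, xol-1 and dpy-28 in replicate 1 and xol-1 and dpy-21 in replicate 2. No paired analysis was possible because there is 1 group. Depth is unknown, so a gene with no listed region is not shown to lack signal.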

Other observations

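The copies of ATCGCGCAGGGA on X that lay in no IDR peak differed in what the lists held. A copy on the plus strand from 13514555 to 13514566 lay in a pooled region with a signal of 24.5 at rank 421, 36 bp from its summit. A copy on the minus strand from 2997297 to 2997308 lay in no pooled region, while the copy from 2997122 to 2997133 on the same strand lay in an IDR peak with a signal of 72.8. The autosomal copy, on chromosome V from 5751450 to 5751461, lay in no pooled region. The highest signal at a copy was 114, in the IDR peak ranked 34, whose copy was 90 bp from the summit.

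Replicate 2 alone listed a strong region near the germline sex determination gene fog-1. At its strongest pooled summit, 462 bp upstream of the start, the pooled signal was 17.6 at rank 3574, and the replicate signals were 6.88 at rank 28722 in replicate 1 and 13.3 at rank 522 in replicate 2.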
